A study of Mus musculus with 9 samples.

Results

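The tripartite motif (TRIM) genes were read in the mouse hippocampus as every row whose symbol begins with Trim followed by a digit, 67 of 24411 genes in each deposited file. Of these, 43 reached the minimum mean of 10 on the linear scale over the 9 mice (a log2 value of 3.32) and were tested, and 24 did not. RNA from the hippocampi of 9 wild type C57BL/6J mice, 10 weeks old by the labels and male by the study's methods, was sequenced 10 days after gene transfer, 3 mice in each of 3 groups. All mice carried AAV9 that expresses Egfp with CTG repeats in its 3′-UTR, injected into CA1 on both sides. CUG300 CWG-cPIP mice received the vector with 300 repeats mixed with CWG-cPIP, a cyclic pyrrole-imidazole polyamide that binds CAG and CTG repeat DNA. CUG300 vehicle mice received the same vector with vehicle, and CUG10 vehicle mice the vector with 10 repeats and vehicle. The repeat RNA therefore came from a viral transgene at the injection site over a short time and not from an endogenous expanded locus, and no mouse without vector was among the groups.

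TRIM proteins are mostly ubiquitin ligases. A RING finger, B-boxes and a coiled coil stand at the N-terminus, and the C-terminal domain (PRY-SPRY, NHL, PHD-bromodomain, fibronectin-like and others) chooses the target. One large branch, with a PRY-SPRY end, is known from innate immunity: TRIM25 activates the RNA sensor RIG-I, TRIM21 binds antibody-coated particles in the cytosol, and human TRIM5 blocks incoming retroviruses. Other branches act at axons, in chromatin, in muscle and in autophagy, so that the family holds genes induced by interferon next to genes that cells keep at steady levels.

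All 67 members had a coordinate in GENCODE M21 on GRCm38, the build of the authors' alignment. They lay on 15 chromosomes, with 15 members on chromosome 7 and 11 on chromosome 11. Of these, 9 symbols on chromosome 7 formed a cluster between 104218793 and 104535361 that runs over 316.6 kb, from Trim6 to the pseudogene Trim30e-ps1, and holds the mouse relatives of human TRIM5 (Trim12a, Trim12c and the Trim30 genes) and of TRIM34 (Trim34a, Trim34b). Trim5 and Trim30c were not analysed here.

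Promoter sequence is shown for the members whose RNA was higher in CUG300 vehicle mice, because the interferon-stimulated response element (ISRE) is the site at which interferon-activated factors bind. The core, GAAA, any 2 bases and GAAA again, was searched on both strands (TTTC, any 2 bases and TTTC on the other) over 250 bases before to 50 bases after each RefSeq start site (GRCm38.p6). Each line below gives 30 bases in the direction of the gene with the core in capitals.
Trim30a, chr7:104465210-104465239, minus strand: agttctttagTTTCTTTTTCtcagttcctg
Trim30d, chr7:104507871-104507900, minus strand: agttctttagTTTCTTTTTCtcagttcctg
Trim12a, chr7:104315466-104315495, minus strand: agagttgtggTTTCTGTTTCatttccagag
Trim12c, chr7:104353359-104353388, minus strand: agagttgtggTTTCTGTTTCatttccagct
Trim34a, chr7:104244457-104244486, plus strand: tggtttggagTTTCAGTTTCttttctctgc
Trim21, chr7:102565450-102565479, minus strand: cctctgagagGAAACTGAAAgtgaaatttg
Trim26, chr17:36836976-36837005, plus strand: ccgcttccgaTTTCACTTTCcttttctcgg

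The core began at base −36 of Trim30a and −41 of Trim30d, counted from the start site as +1, and both windows hold the same 30 bases. Those of Trim12a and Trim12c differ only in their last bases, and the core began at +11 and −29. It began at +11 in Trim34a, at +14 in Trim21 and at −160 in Trim26. In Trim21 and in Trim26 a second core overlapped the one shown. Of the 11 members that were higher in CUG300 vehicle mice (below), 9 had a promoter in the table and 7 of these held the core, against 3.99% of all 27025 genes with a promoter there. That share takes in genes not called higher. The nearer group is the 1096 genes called higher, of which 826 (75.4%) had a promoter and 107 of these (13.0%) held the core. This coverage is under the 80% set for such a check. The 7 of 9 was not tested against either share, and no conclusion is drawn from it. Trim25 and Trim47 had no match in this window, and Trim14 and Trim16 had no promoter in the table. The core of another interferon element, TTCNNNGAA, was in 0 of the same 9 promoters and in 9.55% of all genes with a promoter. Of the 826 genes called higher with a promoter, 109 (13.2%) held it. With so few promoters, no conclusion is drawn from the 0. Of the 31 tested members that were not called, 23 had a promoter, also fewer than 80% of them. Of the 23, 1 (Trim2) held the ISRE core, and no conclusion is drawn from that count either. Since 4 of the 7 matches are in pairs of near copies, they are not separate observations, and a match of letters does not show that a factor binds.

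Values are regularized logarithms (rlog) of counts on the log2 scale, deposited for each mouse. They are not divided by gene length, so they were compared between mice and never between genes. The CWG-cPIP mice were far apart from each other. On the first principal component of all tested genes, which carried 63.4% of the variance, CWG-cPIP replicates 1, 2 and 3 lay at 0.49, −28.66 and 33.82. The CUG300 vehicle mice lay between 20.76 and 44.75 and the CUG10 vehicle mice between −39.07 and −27.65. Replicate 2 thus sat among the CUG10 vehicle mice and replicate 3 among the CUG300 vehicle mice. Medians over tested genes ran from 8.43 to 8.54, and those of the CUG10 vehicle mice were the lowest. They were 8.43 to 8.44 in CUG10 vehicle, 8.48 to 8.54 in CUG300 vehicle and 8.46 to 8.53 in CWG-cPIP mice. Calls under median centering are therefore given below. The number of reads per mouse is unknown.

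The first comparison asked which TRIM genes differ when the repeat is long. Against CUG10 vehicle mice, CUG300 vehicle mice had higher RNA of 11 of the 43 tested members and lower RNA of 1, at a limma adjusted p under 0.05 over all genes tested. Trim30a, Trim30d, Trim21, Trim34a, Trim25, Trim14, Trim12c, Trim12a and Trim26, all of the interferon-linked list, rose, as did Trim47 and Trim16, and Trim37 fell. That list was drawn up by role, with earlier results of these data known, and is not the PRY-SPRY branch. Of all 14867 genes tested, 7.37% were called higher and 3.34% lower, so that the share of members called higher, 25.6%, was above the background and the share called lower, 2.33%, was near it. Under median centering the calls over all genes were 1014 higher and 908 lower and under quantile scaling 888 and 642, against 1096 and 496 with the deposited scaling. None of the 12 called members changed sign under any of 17 alternatives. The median difference was 0.05 over the tested members and −0.01 over all genes; it was 2.03 over the interferon-linked members and −0.14 over the rest. Before adjustment, p was under 0.05 for 15 members that were higher and 9 that were lower, against 16.3% and 14.2% of all genes.

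**Figure D1:**
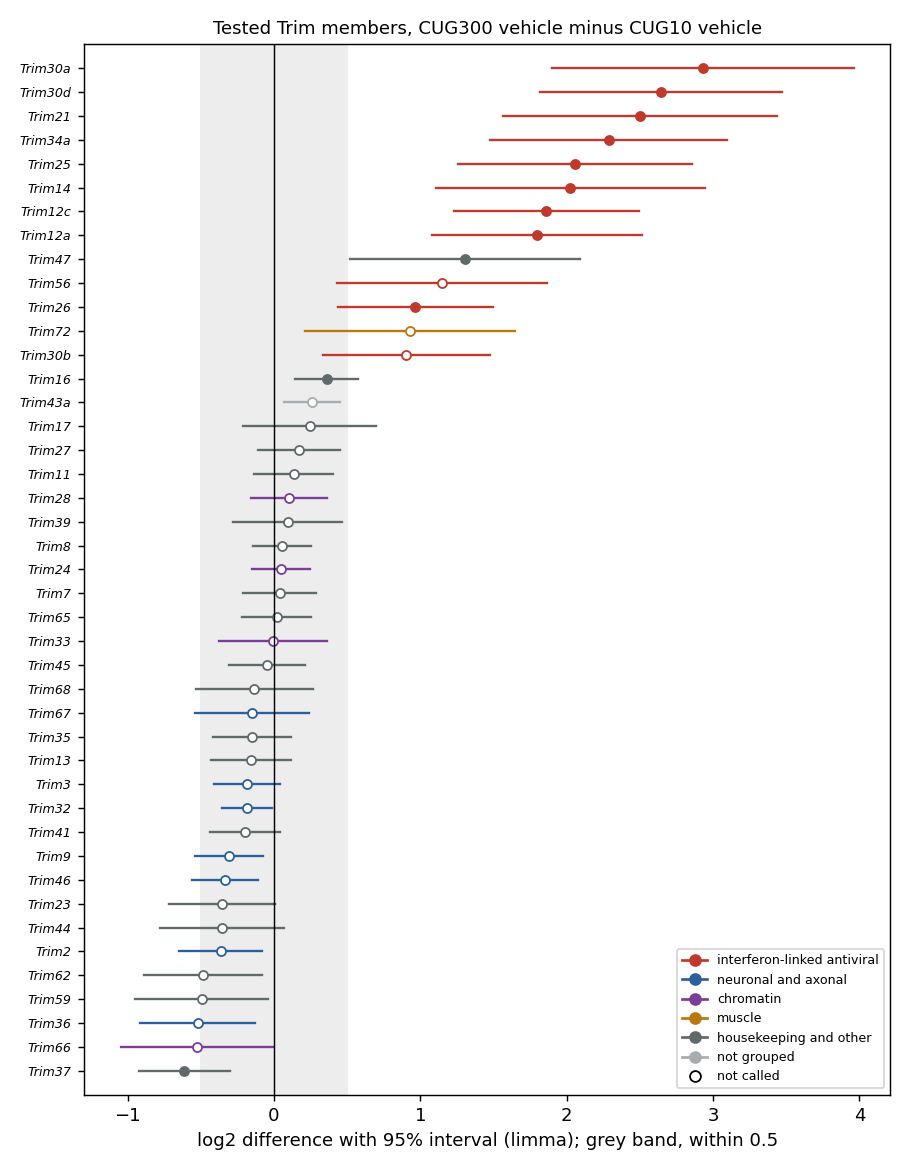
Differences of the 43 tested Trim members on the log2 scale (x axis, CUG300 vehicle minus CUG10 vehicle), 1 row per gene in order of size, with 95% limma intervals and colours by role, the grey band marking 0.5 on either side of 0; filled points passed the adjusted test. The interferon-linked members take the 8 uppermost rows, from 2.93 for Trim30a to 1.80 for Trim12a, and Trim37 at −0.61 is at the bottom.

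In the interferon-linked list, 16 members were in the files and 11 were tested. Of these 11, 9 were called higher and 0 lower, with a median log2 difference of 2.03. Every one of the 11 had its lowest CUG300 vehicle value above its highest CUG10 vehicle value. Over all tested members, 16 were higher without overlap and 9 lower, against 18.2% and 16.7% of all genes. Trim30a, described in mice as a brake on NF-κB signalling, gave 10.10, 8.69 and 10.81 rlog units in CUG300 CWG-cPIP mice, 10.59, 10.68 and 10.85 in CUG300 vehicle mice and 7.29, 8.14 and 7.89 in CUG10 vehicle mice. The vehicle groups were well apart, and CWG-cPIP mice ran from above the CUG10 vehicle values into the CUG300 vehicle range. The difference of CUG300 vehicle from CUG10 vehicle was 2.93 ± 0.46 (SE), about 7.63-fold (95% interval 3.74 to 15.6, adjusted p = 0.0207).

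Its neighbour Trim30d read 8.79, 7.62 and 9.34 in CUG300 CWG-cPIP mice, 8.98, 9.32 and 9.40 in CUG300 vehicle mice and 6.40, 6.81 and 6.56 in CUG10 vehicle mice. Again the vehicle groups did not overlap, and CWG-cPIP replicate 2 was the lowest of its group while replicate 3 matched the CUG300 vehicle mice. This was a difference of 2.64 ± 0.37, or 6.25-fold (adjusted p = 0.0207). Of 150-base windows in their annotated transcripts, Trim30a and Trim30d shared about 3.2% with each other, so few of their reads could be exchanged.

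Trim21, the cytosolic antibody receptor, lies on chromosome 7 at 102557921 to 102565486, outside the cluster. It measured 9.42, 7.93 and 9.84 in CUG300 CWG-cPIP mice, 9.84, 9.65 and 9.89 in CUG300 vehicle mice and 7.0, 7.59 and 7.29 in CUG10 vehicle mice. CWG-cPIP replicate 2 lay close to the CUG10 vehicle mice and the other CWG-cPIP mice close to or within the CUG300 vehicle mice. The vehicle groups differed by 2.50 ± 0.41 (adjusted p = 0.0213), a 5.65-fold difference.

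Trim25, the ligase that activates RIG-I, is on chromosome 11 at 88999376 to 89020293. It stood at 9.47, 8.43 and 10.03 in CUG300 CWG-cPIP mice, 9.73, 9.87 and 10.23 in CUG300 vehicle mice and 7.56, 8.05 and 8.04 in CUG10 vehicle mice. All CUG300 vehicle values were above all CUG10 vehicle values, by 2.06 ± 0.35 on average (4.17-fold, adjusted p = 0.0218). Trim14, an adaptor of antiviral signalling at mitochondria that has no RING finger, had 7.35, 6.37 and 8.28 in CUG300 CWG-cPIP mice, 7.62, 7.91 and 7.99 in CUG300 vehicle mice and 5.58, 6.19 and 5.67 in CUG10 vehicle mice. The vehicle groups were separate, and the CWG-cPIP mice filled the gap between them, with replicate 3 the highest of all mice. The difference of CUG300 vehicle from CUG10 vehicle was 2.03 ± 0.41 (adjusted p = 0.0248). For Trim14, 26.5% of transcript windows also occur in Nans, a sialic acid synthase gene, which differed by 0.30 (adjusted p = 0.135), so part of the Trim14 reads is uncertain.

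The remaining cluster genes moved by somewhat less. Trim34a gave 8.94, 7.66 and 9.33 in CUG300 CWG-cPIP mice, 9.06, 9.23 and 9.20 in CUG300 vehicle mice and 6.65, 7.07 and 6.90 in CUG10 vehicle mice, a vehicle difference of 2.29 ± 0.36 (adjusted p = 0.0207). The groups given vehicle did not overlap, and 24.3% of its transcript windows occur in other genes, 16.2% in the predicted gene Gm47248. Trim12c, a relative of human TRIM5, had 8.36, 7.80 and 9.09 in CUG300 CWG-cPIP mice, 9.06, 8.91 and 9.11 in CUG300 vehicle mice and 6.96, 7.41 and 7.13 in CUG10 vehicle mice. Trim12a had 7.65, 6.92 and 8.39 in CUG300 CWG-cPIP mice, 8.26, 8.17 and 8.52 in CUG300 vehicle mice and 6.38, 6.79 and 6.38 in CUG10 vehicle mice. For both, CWG-cPIP replicates 1 and 2 fell between the vehicle groups and replicate 3 within the CUG300 vehicle range. Vehicle differences were 1.86 ± 0.28 for Trim12c (adjusted p = 0.0207) and 1.80 ± 0.32 for Trim12a (adjusted p = 0.0221).

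Trim26, a gene of the major histocompatibility region on chromosome 17, rose by less than the other called members of its list. Its values were 9.34, 8.69 and 9.77 in CUG300 CWG-cPIP mice, 9.47, 9.48 and 9.79 in CUG300 vehicle mice and 8.56, 8.72 and 8.56 in CUG10 vehicle mice. CWG-cPIP replicate 2 lay within the CUG10 vehicle range. The CUG300 vehicle mean was 0.97 ± 0.23 above the CUG10 vehicle mean (1.95-fold, adjusted p = 0.0362).

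The other 2 tested members of the list did not pass. Trim56, an antiviral ligase that acts with the adaptor STING in human cells, measured 7.07, 6.27 and 7.25 in CUG300 CWG-cPIP mice, 6.58, 7.5 and 7.47 in CUG300 vehicle mice and 5.73, 6.19 and 6.18 in CUG10 vehicle mice, a vehicle difference of 1.15 (adjusted p = 0.0504). Trim30b, in the cluster, measured 4.09, 3.63 and 4.86 in CUG300 CWG-cPIP mice, 4.55, 4.56 and 4.42 in CUG300 vehicle mice and 3.59, 3.59 and 3.63 in CUG10 vehicle mice, a vehicle difference of 0.91 (adjusted p = 0.0520). In both genes every CUG300 vehicle mouse was above every CUG10 vehicle mouse, both stood just beyond the threshold, and Trim56 passed under median centering.

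**Figure D2:**
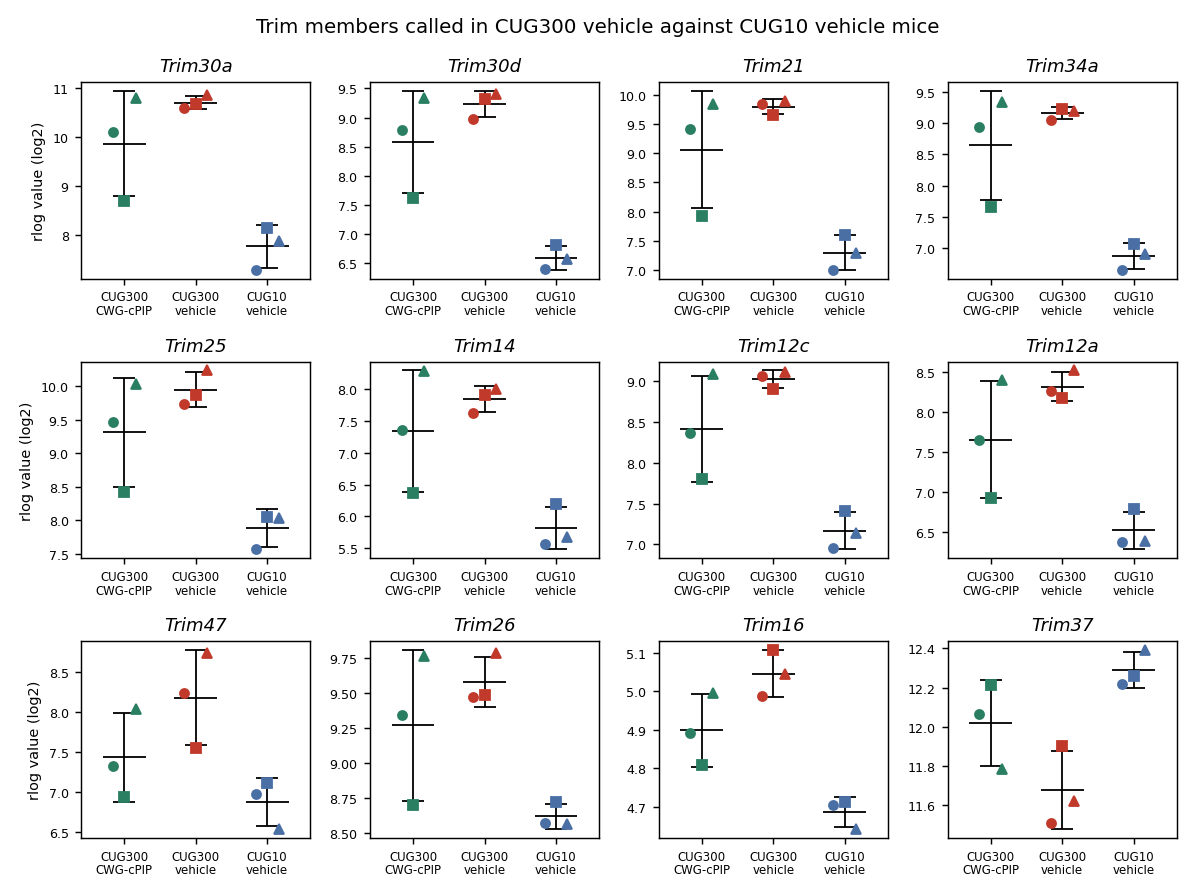
Rlog values (log2, y axis) of the 12 Trim members called between CUG300 vehicle and CUG10 vehicle mice, 1 panel per gene with its own scale; circles, squares and triangles are replicates 1, 2 and 3, and lines give mean and SD. In all 11 members that were higher, the square of the CUG300 CWG-cPIP group is its lowest point and the triangle its highest.

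Outside the interferon-linked list, 32 members were tested, of which 2 were called higher and 1 lower, with a median difference of −0.14. Trim47 had 7.32, 6.93 and 8.04 in CUG300 CWG-cPIP mice, 8.24, 7.55 and 8.74 in CUG300 vehicle mice and 6.97, 7.11 and 6.53 in CUG10 vehicle mice, a vehicle difference of 1.31 ± 0.35 (adjusted p = 0.0458). Its CUG300 vehicle mice were spread over more than 1 unit, and CWG-cPIP replicate 2 was within the CUG10 vehicle range. Trim16, a ligase without RING finger that acts in the clearance of damaged lysosomes in human cells, had 4.89, 4.81 and 5.0 in CUG300 CWG-cPIP mice, 4.99, 5.11 and 5.04 in CUG300 vehicle mice and 4.70, 4.71 and 4.64 in CUG10 vehicle mice. The difference of its vehicle groups was small, 0.36 ± 0.09 (1.28-fold, adjusted p = 0.0440), and it did not pass under median centering, under quantile scaling, where it was 0.19, without the filter on low values, with the replicate number as a block or with only the compared groups in the fit. Trim47 did not pass under quantile scaling or without the filter either.

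Trim37, a ligase of peroxisomes and centrosomes whose loss causes the growth disorder mulibrey nanism in humans, was the 1 member called lower. It lies on chromosome 11 at 87127077 to 87220683 and gave 12.06, 12.22 and 11.78 in CUG300 CWG-cPIP mice, 11.51, 11.90 and 11.62 in CUG300 vehicle mice and 12.22, 12.26 and 12.39 in CUG10 vehicle mice. The vehicle groups did not overlap, and CWG-cPIP replicate 2 came up to the lowest CUG10 vehicle value while replicate 3 stayed within the CUG300 vehicle range. The difference of CUG300 vehicle from CUG10 vehicle was −0.61 ± 0.14 (0.655-fold, adjusted p = 0.0312), and it did not pass under quantile scaling.

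These calls rest on few mice. Without CUG10 vehicle replicate 1, 2 or 3, or without CUG300 vehicle replicate 3, 0 of the 12 calls were made. The smallest adjusted p values of a member were 0.0841, 0.0614, 0.101 and 0.0905. Over all genes, 0, 2, 0 and 0 were called in these fits. Without CWG-cPIP replicate 1, which enters only through the pooled spread, 7 were called (Trim30a, Trim30d, Trim21, Trim34a, Trim25, Trim12c and Trim12a), against 1.78% of all genes. The sizes moved little: leaving out any 1 mouse gave 2.69 to 3.12 for Trim30a, 1.90 to 2.17 for Trim25, 0.86 to 1.02 for Trim26 and −0.72 to −0.53 for Trim37. Without CUG300 vehicle replicate 1, Trim47 was lost and Trim56 and Trim59 were called, and without replicate 2 of that group Trim16 was lost and Trim2, Trim9, Trim23, Trim44 and Trim72 were called. The calls over all genes were 13.8% and 16.7% in these fits. Without CWG-cPIP replicate 2 or 3 the 12 calls were kept and Trim30b, Trim36 and Trim56 were added, with 12.6% and 15.5% of all genes called. With only the mice of the compared groups in the fit, 14 members and 12% of all genes were called, and the smallest adjusted p of a member was 9.4e-05.

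Some markers of other cell types were also higher in CUG300 vehicle mice, where 7.37% of all genes were called higher. Of 5 macrophage and monocyte markers, 3 were called higher in CUG300 vehicle mice: Ly6c2 by 4.52, Ccr2 by 2.82 and Ms4a7 by 2.54 on the log2 scale. Their list, summed on the linear scale, ran from 386 to 2567 in CUG300 CWG-cPIP mice, 1699 to 3289 in CUG300 vehicle mice and 212 to 258 in CUG10 vehicle mice. Of 5 T and NK cell markers, 3 were called higher, with sums of 114 to 325 in CUG300 CWG-cPIP mice, 233 to 346 in CUG300 vehicle mice and 95.9 to 153 in CUG10 vehicle mice. Of 2 tested B cell markers Cd79a was called (1.17), and of 3 astrocyte markers Aqp4 (0.91), while Slc1a3 differed by −0.0018. Microglia markers gave 1 call of 5 (Tmem119, 0.77), with P2ry12 at −0.34 and Sall1 at −0.12, and sums of 5448 to 6447 in CUG300 CWG-cPIP mice, 6356 to 7739 in CUG300 vehicle mice and 4657 to 5845 in CUG10 vehicle mice. None of these markers was at 0. Their part in the higher TRIM values was not tested, and in a bulk sample more cells of a type and more RNA per cell cannot be told apart.

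**Figure D3:**
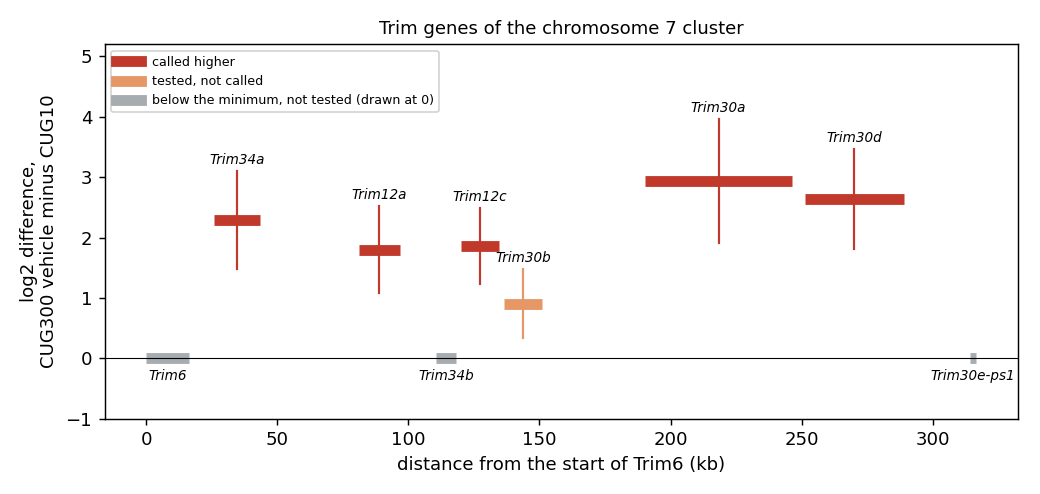
Log2 difference of CUG300 vehicle from CUG10 vehicle (y axis, with 95% limma interval) for the 9 Trim symbols of the chromosome 7 cluster, drawn as bars over the extent of each gene in kb from the start of Trim6 (x axis). The 5 members called higher lie between 1.80 and 2.93, Trim30b at 0.91 was tested and not called, and the 3 grey symbols were below the minimum.

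In the chromosome 7 cluster, 6 of 9 symbols were tested and 5 called higher, Trim34a, Trim12a, Trim12c, Trim30a and Trim30d. Trim6, Trim34b and Trim30e-ps1 were below the minimum. In the cluster and within 500 kb on either side, the files list 57 other genes, mainly olfactory receptor and beta globin genes. Of these, only Hbb-bt and Hbb-bs, both in the flanks, reached the minimum. They differed by 0.19 and 0.78 and neither was called, so the flanks offer little to set the cluster against.

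No neuronal or axonal member passed in either direction, but all 7 had a lower mean in CUG300 vehicle mice, with a median difference of −0.31. Before adjustment 5 of them had p under 0.05, against 14.2% of all genes in that direction. Trim9, a brain ligase of the netrin pathway that shapes axon branches, had 11.48, 11.54 and 11.36 in CUG300 CWG-cPIP mice, 11.05, 11.37 and 11.26 in CUG300 vehicle mice and 11.52, 11.49 and 11.60 in CUG10 vehicle mice. Trim46, which bundles microtubules at the axon initial segment, had 9.91, 9.83 and 9.75 in CUG300 CWG-cPIP mice, 9.47, 9.65 and 9.68 in CUG300 vehicle mice and 9.81, 9.96 and 10.04 in CUG10 vehicle mice. In both, the CUG300 vehicle mice were below all CUG10 vehicle mice, by 0.31 (adjusted p = 0.0832) and 0.34 (adjusted p = 0.0607), and both passed as lower under median centering.

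Trim2, a ligase of neurofilament light chain, had 12.82, 12.82 and 12.62 in CUG300 CWG-cPIP mice, 12.49, 12.67 and 12.23 in CUG300 vehicle mice and 12.73, 12.86 and 12.89 in CUG10 vehicle mice, a vehicle difference of −0.36 (adjusted p = 0.0893). Trim32, an NHL protein mutated in a human limb-girdle muscular dystrophy, had 11.76, 11.72 and 11.71 in CUG300 CWG-cPIP mice, 11.57, 11.64 and 11.69 in CUG300 vehicle mice and 11.81, 11.80 and 11.83 in CUG10 vehicle mice. Its 3 groups did not overlap at all, but the vehicle difference was only −0.18 (adjusted p = 0.133). Trim36, a microtubule-binding ligase on chromosome 18, had 6.22, 6.57 and 5.88 in CUG300 CWG-cPIP mice, 6.28, 6.08 and 5.94 in CUG300 vehicle mice and 6.57, 6.63 and 6.65 in CUG10 vehicle mice. The vehicle groups were separate, by −0.52 (adjusted p = 0.0842), and the gene passed as lower under quantile scaling.

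Trim3, a synaptic ligase, and Trim67, the closest relative of Trim9, differed by −0.18 and −0.15 between the vehicle groups. Of 6 hippocampal neuron markers only Fibcd1 (−0.80) was called lower. Among the others, Prox1 was higher (0.12), Wfs1 and Spink8 differed by −0.02, Neurod6 by −0.17 and Grik4 by −0.33. Of 3 pan-neuronal markers only Syt1 (−0.51) was called lower, with Snap25 at −0.42 and Rbfox3 at −0.24. The part of these markers in the neuronal TRIM values was not tested.

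**Figure D4:**
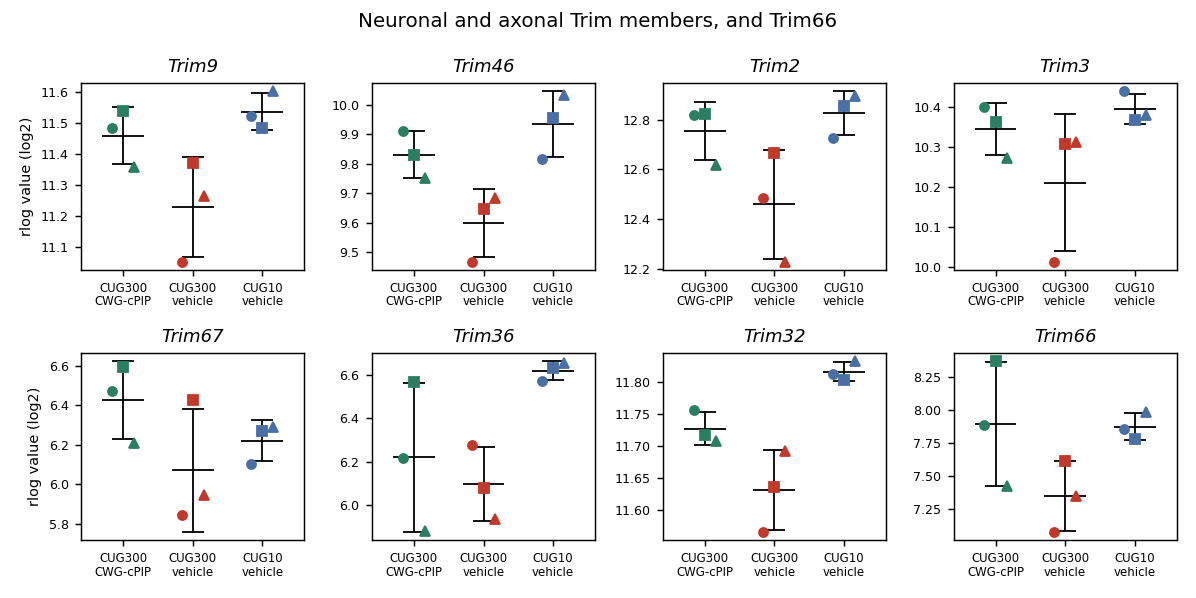
Rlog values (log2, y axis) of the 7 neuronal and axonal Trim members and of Trim66, 1 panel per gene with its own scale; circles, squares and triangles are replicates 1, 2 and 3, and lines give mean and SD. The CUG300 vehicle mean is below the CUG10 vehicle mean in each panel, by 0.15 for Trim67 to 0.53 for Trim66.

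The chromatin members stayed close to 0 with 1 exception, and 0 of 4 were called, with 1 at an unadjusted p under 0.05. Trim28, the corepressor that KRAB zinc finger proteins recruit, had 11.31, 11.24 and 11.53 in CUG300 CWG-cPIP mice, 11.33, 11.36 and 11.65 in CUG300 vehicle mice and 11.30, 11.33 and 11.39 in CUG10 vehicle mice. Trim33, which acts on SMAD signalling, had 9.88, 10.04 and 9.66 in CUG300 CWG-cPIP mice, 9.40, 10.00 and 9.96 in CUG300 vehicle mice and 9.79, 9.77 and 9.82 in CUG10 vehicle mice. All 3 groups overlapped in both genes, and the vehicle differences of 0.10 and −0.01 had 95% intervals of −0.16 to 0.36 and −0.38 to 0.37. The exception was Trim66, with 7.88, 8.37 and 7.43 in CUG300 CWG-cPIP mice, 7.08, 7.61 and 7.35 in CUG300 vehicle mice and 7.86, 7.78 and 7.99 in CUG10 vehicle mice, a vehicle difference of −0.53 (adjusted p = 0.158).

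Of the muscle members only Trim72, a membrane repair protein, reached the minimum. It had 3.96, 3.52 and 4.20 in CUG300 CWG-cPIP mice, 4.18, 4.02 and 5.34 in CUG300 vehicle mice and 3.67, 3.52 and 3.57 in CUG10 vehicle mice, a vehicle difference of 0.93 (adjusted p = 0.0881) that owed much to replicate 3, since it was 0.52 without that mouse. A share of 16.7% of its windows occurs in the predicted gene Gm15533. Trim63 and Trim55, both muscle RING finger ligases, stayed at 0.65 to 0.89 and at −0.88 to −0.82 over all mice, and Trim54, the other one, was at 0 in all. Of 5 skeletal and heart muscle markers, 4 were below the minimum as well, and Acta1 differed by 0.03.

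In the housekeeping and other group, 19 of 22 members were tested. Beside Trim47, Trim16 and Trim37, the other 16 were not called, and 10 of the 19 had a 95% interval within 0.5 of 0. Trim13, an endoplasmic reticulum ligase of autophagy, gave 7.30, 7.29 and 7.22 in CUG300 CWG-cPIP mice, 7.49, 7.16 and 7.17 in CUG300 vehicle mice and 7.44, 7.49 and 7.36 in CUG10 vehicle mice, a vehicle difference of −0.16 (interval −0.43 to 0.12). Trim59, another membrane ligase, gave 7.94, 8.23 and 7.83 in CUG300 CWG-cPIP mice, 8.58, 7.92 and 7.80 in CUG300 vehicle mice and 8.55, 8.68 and 8.56 in CUG10 vehicle mice. All its CWG-cPIP mice were below the CUG10 vehicle mice (−0.60, adjusted p = 0.263), and of the CUG300 vehicle mice replicate 1 was not.

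Counted over the family, 16 of 43 tested members (37.2%) had an interval of the vehicle difference within 0.5 of 0, against 41.9% of all genes tested. They were Trim3, Trim7, Trim8, Trim11, Trim13, Trim24, Trim27, Trim28, Trim32, Trim33, Trim35, Trim39, Trim41, Trim43a, Trim45 and Trim65. These are the members for which the data bound the difference between CUG300 vehicle and CUG10 vehicle mice to a small size. For others that were not called, such as Trim44 (−0.35, interval −0.78 to 0.07), Trim62 (−0.48, −0.89 to −0.08) and Trim17 (0.24, −0.21 to 0.70), it did not.

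The second comparison asked what CWG-cPIP changed in CUG300 mice. No member was called against vehicle, the same as for all genes, of which 0% were called higher and 0% lower. Before adjustment, 5 members had p under 0.05, Trim2 (0.29), Trim37 (0.34), Trim46 (0.23) and Trim66 (0.55) higher and Trim43a lower (−0.26). This was 4 higher and 1 lower of 43, against 5.23% and 3.59% of all genes, and counts this small are not read as a difference. The smallest adjusted p of a member was 0.483. By sign alone, all 11 tested interferon-linked members had a lower mean with CWG-cPIP, from −0.84 to −0.31 with a median of −0.61, and all 7 neuronal members a higher mean, with a median of 0.23. Both comparisons use the CUG300 vehicle mice, so opposite signs between them are partly built in.

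**Figure D5:**
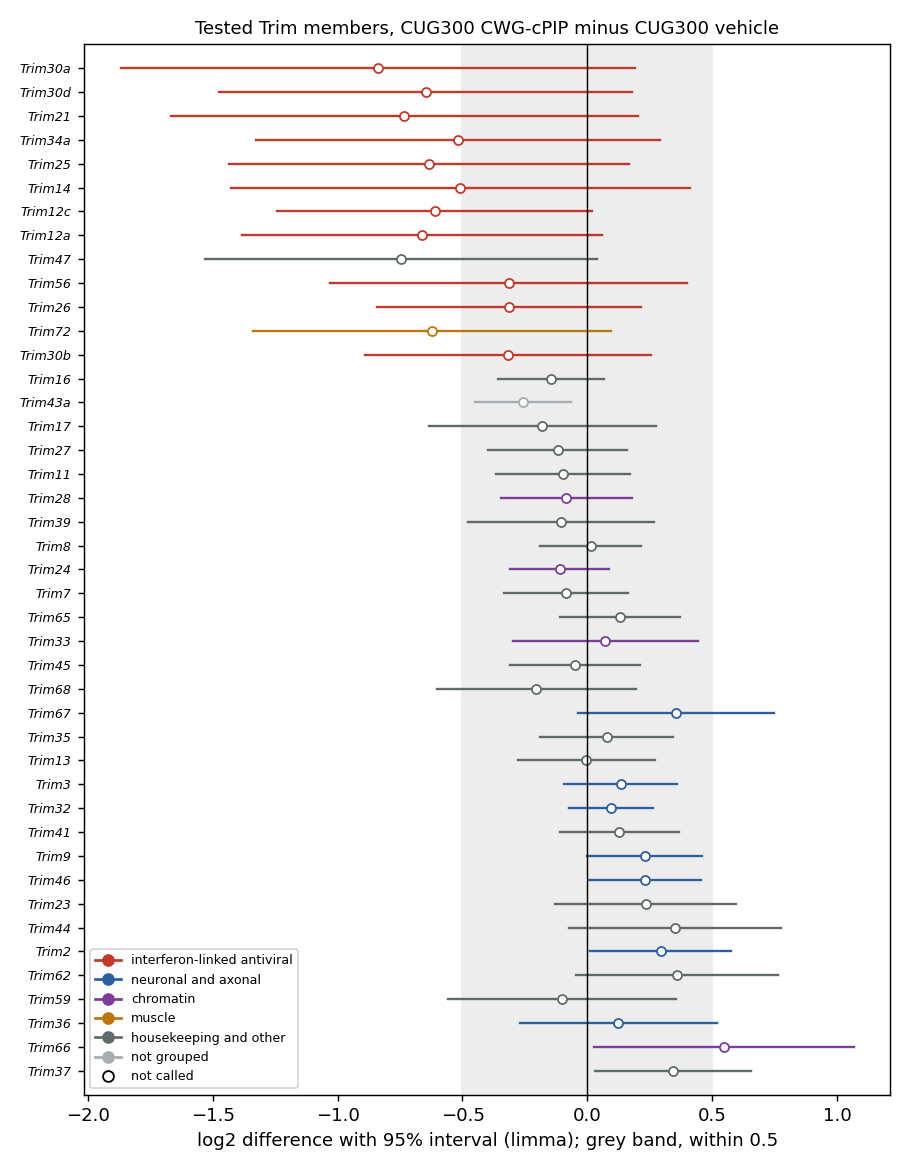
Differences of the 43 tested Trim members on the log2 scale (x axis, CUG300 CWG-cPIP minus CUG300 vehicle) with 95% limma intervals and colours by role, rows in the order of the vehicle comparison. No point passed the adjusted test, and the intervals of the uppermost rows are wide, from −1.87 to 0.19 for Trim30a.

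The intervals show what the CWG-cPIP data could not settle. That of Trim30a ran from −1.87 to 0.19 around −0.84 and that of Trim47 from −1.53 to 0.04 around −0.75. Each holds 0 as well as falls of more than 1 unit. In the 11 members higher in CUG300 vehicle mice, CWG-cPIP replicate 1 lay between the ranges of the vehicle groups in 11, replicate 2 between them in 9 and within the CUG10 vehicle range in 2 (Trim26 and Trim47), and replicate 3 within the CUG300 vehicle range in 9 and above it in 2 (Trim14 and Trim34a). Replicate 2 was the lowest and replicate 3 the highest of the group in all 11. The CWG-cPIP mice thus kept 1 order over these members.

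Single mice moved these values. Without CWG-cPIP replicate 3, 0 members and 3 of all genes were called, with 0.0811 as the smallest adjusted p of a member. In the fit without CUG300 vehicle replicate 2, 0 members and 0 of all genes were called, and the smallest adjusted p was 0.106. In the fit without CWG-cPIP replicate 2, 0 members and 0 of all genes were called, and the smallest adjusted p was 0.953. For Trim30a the difference of CWG-cPIP from vehicle ran from −1.31 to −0.25 over these omissions. The summed choroid plexus markers were 882 to 1357 in CUG300 CWG-cPIP mice, 15674 to 62207 in CUG300 vehicle mice and 995 to 28579 in CUG10 vehicle mice, and their part in the TRIM values was not tested.

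Values without overlap between CWG-cPIP and vehicle mice of CUG300 were found in 3 members that were higher and 1 that was lower, against 4.97% and 3.5% of all genes. The higher ones were Trim46 and Trim32, given above, and Trim65, a ligase of the RNA sensor MDA5, with 5.35, 5.30 and 5.33 in CUG300 CWG-cPIP mice, 5.04, 5.26 and 5.28 in CUG300 vehicle mice and 5.16, 5.09 and 5.27 in CUG10 vehicle mice. The lower one was Trim43a, known from early mouse embryos, with 3.39, 3.31 and 3.42 in CUG300 CWG-cPIP mice, 3.59, 3.57 and 3.73 in CUG300 vehicle mice and 3.46, 3.37 and 3.29 in CUG10 vehicle mice. Differences were 0.23, 0.10, 0.13 and −0.26 for Trim46, Trim32, Trim65 and Trim43a, and the shares of 3 and 1 in 43 members were near the background. For 19 of the 43 members, the interval of the CWG-cPIP difference lay within 0.5 of 0, against 50.6% of all genes.

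The third comparison set CUG300 CWG-cPIP mice against CUG10 vehicle mice. No member was called and 0% of all genes were called in each direction, with a smallest adjusted p among members of 0.119. Before adjustment, 13 members had p under 0.05, the 11 tested interferon-linked members higher and Trim36 and Trim59 lower, against 8.12% and 5.31% of all genes. Trim30a differed by 2.09 (interval 1.06 to 3.12), Trim30d by 1.99 (1.17 to 2.82), Trim21 by 1.77 (0.83 to 2.7) and Trim25 by 1.43 (0.63 to 2.23). The intervals of these genes lay above 0 although the adjusted test over all genes did not pass. Without CWG-cPIP replicate 2, 9 members were called higher: Trim30a, Trim30d, Trim21, Trim34a, Trim25, Trim14, Trim12c, Trim12a and Trim26, while 3.81% of all genes were called in that fit. The F test between the 3 groups called 0 members and 0% of all genes, with 21 members and 23.5% of all genes under 0.05 before adjustment and 0.0547 as the smallest adjusted p. Without CWG-cPIP replicate 2 or 3 it called 11 and 12 members and 7.0% and 9.98% of all genes, and without any other mouse 0 members.

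Of the 24 members below the minimum, Trim52, Trim54 and Trim61 were at 0 in all mice. The other 21 stayed low in every group: Trim6, Trim10, Trim15, Trim29, Trim30e-ps1, Trim31, Trim34b, Trim38, Trim40, Trim42, Trim43b, Trim43c, Trim50, Trim55, Trim58, Trim60, Trim63, Trim69, Trim71, Trim75 and Trim80. Their highest value was 3.76, for Trim69 in CUG300 vehicle replicate 3. At the edge of the filter, Trim43a had a mean of 3.46 over all mice, just inside, and Trim6 one of 3.16, just outside, with 3.14, 2.91 and 3.56 in CUG300 CWG-cPIP mice, 3.10, 3.36 and 3.45 in CUG300 vehicle mice and 2.94, 3.01 and 2.98 in CUG10 vehicle mice. All 43 tested members also had a CUG10 vehicle mean above the minimum, so none entered through the CUG300 mice alone.

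Genes that work with TRIM ligases were read as lists, drawn up with earlier results of these data known. Of all genes tested, 7.37% were called higher in CUG300 vehicle mice and 3.34% lower. Of 7 genes with a TRIM fold and another symbol, 6 were tested and 2 called higher in CUG300 vehicle mice. Pml, which builds nuclear bodies, had 9.75, 8.59 and 10.20 in CUG300 CWG-cPIP mice, 9.59, 10.06 and 10.09 in CUG300 vehicle mice and 7.96, 8.35 and 8.17 in CUG10 vehicle mice, a vehicle difference of 1.75 (adjusted p = 0.0253). Mefv, the gene of pyrin, differed by 1.52 (adjusted p = 0.0361). Of 8 ubiquitin and ISG15 enzymes of the interferon response, 6 were called higher (Rnf114, Dtx3l, Herc6, Usp18, Ube2l6 and Uba7), while Rnf135 (1.18, adjusted p = 0.0556) and Rnf125 (0.45) did not pass. Of 7 general ubiquitin E1 and E2 enzymes, 1 was called, Ube2d3 by 0.37 (adjusted p = 0.0306).

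Among 12 sensors and adaptors upstream or downstream of TRIM ligases, 6 were called higher and 0 lower: Ddx58, which encodes RIG-I, by 2.69, Ifih1, which encodes MDA5, by 2.75, Irf7 by 3.59, Zc3hav1 by 2.24, and Mb21d1 and Tmem173, which encode cGAS and STING. Mavs (0.26) and Traf6 (−0.06) did not pass. The shares of all genes were 7.37% called higher and 3.34% called lower, and this list too was chosen with earlier results known. Ddx58, the partner of Trim25, read 10.68, 9.04 and 11.09 in CUG300 CWG-cPIP mice, 10.63, 10.90 and 11.04 in CUG300 vehicle mice and 7.78, 8.53 and 8.19 in CUG10 vehicle mice. As in the TRIM genes, the vehicle groups were apart and CWG-cPIP replicate 2 was the lowest of its group. With CWG-cPIP against vehicle, none of the genes of these lists was called.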

How the data were processed

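Hippocampal RNA of 9 mice (3 per group, separate animals) was sequenced from directional libraries. The authors used Trim Galore 0.6.6 for trimming, STAR 2.7.9a for alignment to mm10, RSEM 1.3.3 for gene quantification and DESeq2 1.36.0 for the rlog values (log2) that they deposited. This scaling shrinks low and variable genes toward their mean, so differences may be understated. Use of strand in counting and the rlog options are not given in the sources used here, and the depth is unknown. Rlog values are not counts, so the 14867 genes whose mean reached log2(10) were tested with limma 3.58.1 in R 4.3.3, with 1 mean per group, a variance trend and all 9 mice, with Benjamini-Hochberg adjustment over all of them in each comparison. The procedure was tested on simulated data.

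Values per mouse were given for members called in any comparison, the 6 others with the largest vehicle difference, the first 2 of each role list, and members without overlap between CWG-cPIP and vehicle; Trim2, Trim6 and the list genes were added after their values were seen. Members and lists were chosen with earlier results of these data known. Alternatives were scaling, filter, variance model, mice in the fit, replicate block and leaving out each mouse.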

Additional observations from a re-analysis of the deposited data

How the results depend on the processing

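The count of TRIM members called in CUG300 vehicle against CUG10 vehicle mice was 12, and 14 under median centering, 10 under quantile scaling, 10 without a filter, 11 at a mean of at least log2(100), 12 without a trend, 12 with the robust form and 14 with only the compared groups. Leaving out 1 mouse gave 0 to 16 members and 0% to 16.7% of all genes. All genes share the adjustment, so these counts show how far the calls depend on the setting and are not read as results about the members. CWG-cPIP against vehicle in CUG300 gave 0 under every alternative run, 0 to 0 over the omitted mice. CUG300 CWG-cPIP against CUG10 vehicle mice gave 0 to 9 over the omitted mice and 0 otherwise. The F test gave 0 to 12 over the omitted mice, and under median centering 5 members passed (Trim12c, Trim21, Trim30a, Trim30d and Trim34a). The share of all genes that passed under median centering is not given here, so the 5 are not read as a result about the members. The cause of these shifts was not tested. With the replicate number as a block, 11 members were called in CUG300 vehicle against CUG10 vehicle mice and 0 in the others. Same-numbered mice had correlations of their deviations from −0.50 to 0.41, and mice of different numbers from −0.52 to 0.46. With 3 mice per group this cannot settle whether the numbers pair the mice. Median centering and quantile scaling moved the median vehicle difference over all genes by −0.08. Of the 12 called members 0 changed sign, and of the 31 not called 9 did under some alternative. Precision rests on 3 mice per group.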
